A study of Bos taurus with 10 samples.

Results

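Oocytes matured in vitro (IVM) were compared with immature bovine oocytes for the transcripts of 6 cyclin-dependent kinases other than *CDK1* (*CDK2*, *CDK4*, *CDK5*, *CDK7*, *CDK8* and *CDK9*) and of 3 proteins that form complexes with them (*CCNC*, *CCNH* and *MNAT1*). Members were all probe sets of the Affymetrix bovine array whose only annotated gene symbol was one of these 9, which gave 10 probe sets for 8 genes among the 24016 non-control probe sets. *CDK8* had no annotated probe set. A further 2 probe sets, 1 for *CDK8* and 1 for *CDK2*, carry these names only in the study's lists of transcripts that changed on these same arrays. Because they were picked by that change, their values are given as a description, with no test, and they are left out of every count of called probe sets.

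The IVM group held 5 pools of oocytes collected after 24 h in culture and the immature group held 5 pools collected at 0 h, with 1 array per pool. The cumulus-oocyte complexes came from follicles of 3 to 8 mm on abattoir ovaries, and the number of cows behind a pool is not given in the sources used here. IVM complexes were cultured at 39°C under 5% CO2 with 10% fetal calf serum and 10 ng/ml of epidermal growth factor before they were denuded, whereas immature complexes were denuded at once. A pool held 100 oocytes without visible cumulus, and 100 ng of its RNA went through 2 rounds of amplification from the 3' end. The deposited values are normalised log2 values, so a difference of 1 stands for a doubling of signal. All differences are IVM minus immature. In pooled oocytes, less of a transcript in each oocyte and fewer oocytes carrying it cannot be told apart. The study raises preferential amplification by poly(A) tail length, and these arrays cannot tell a change in tail length from a change in amount. In its qPCR of a panel of genes, random and oligo(dT) priming did not differ significantly. Below, fell means a lower signal.

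Cyclin-dependent kinases are inactive until they bind a partner, usually a cyclin, and some also need a phosphate on the T-loop. CDK7, cyclin H (*CCNH*) and the assembly factor MAT1 (*MNAT1*) form the CDK-activating kinase, which places that phosphate on other CDKs and, as part of the general transcription factor TFIIH, phosphorylates the tail of RNA polymerase II. CDK8 with cyclin C (*CCNC*) forms the kinase module of Mediator, and CDK9 with a cyclin T forms P-TEFb, which releases paused polymerase. CDK2 and CDK4 act at entry into the cell cycle, and CDK5 works mostly outside it with activators of its own. In a mammalian oocyte, resumption of meiosis is driven by CDK1 with cyclin B, transcription is largely silent, and stored transcripts are translated or degraded during maturation.

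Some arrays and controls stood apart. Values hardly moved (a span under 0.01 over the 10 arrays) for 14556 probe sets, called flat below, and the other 9460 varied. Flat values occurred at low and at high levels, up to 13.59 for *CKS1B* among the genes examined. Flat is therefore read as no usable difference from the summarised values, not as a transcript that was absent or steady. IVM replicate 4 had the lowest mean correlation with its own group (r = 0.933, against 0.954 to 0.974 for the other IVM arrays). Spiked poly-A controls averaged 7.95 on the IVM arrays and 7.02 on the immature arrays, and hybridization controls averaged 10.92 on the IVM arrays and 10.02 on the immature arrays, where replicates 1, 2 and 3 were at 9.38 to 9.73. Of 9 oocyte markers on the array, 2 were lower in IVM oocytes at a limma adjusted p under 0.0001 (*ZP3* and *NLRP5*). At an unadjusted p under 0.05, 5 of the 9 were lower, among them *GDF9* (-4.42), and 1 was higher, *KPNA7* (0.37). Differences lay below 0 for 6 of the 9 and above 0 for 3. The summed linear signal of the 9 was 24007 to 41078 on the IVM arrays and 67065 to 92847 on the immature arrays. Of 19 cumulus and granulosa markers, 1 was higher in IVM oocytes (*TNFAIP6*), with a summed signal of 15216 to 212748 on the IVM arrays and 11486 to 32183 on the immature arrays, while *FOXL2*, *LHCGR*, *AREG* and *NR5A2* were flat. *TNFAIP6* alone was at 12.27 to 17.13 on the IVM arrays and 3.27 to 5.95 on the immature arrays. At an unadjusted p under 0.05, 5 of the 15 varying cumulus and granulosa markers were higher, against 41.5% of varying probe sets. Among the 5 were *PTX3* (6.38), *VCAN* (3.96) and *PTGS2* (1.31). At the same p, 3 were lower, among them *CYP19A1* (-1.38) and *STAR* (-1.19). Over all 24016 probe sets, flat ones included, 4332 were lower and 5028 higher at that p. All 7 blood, immune and endothelial markers were flat, so they give no reading of such cells in the pools. The part of follicular cells in the member values was not tested.

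The annotated members past the threshold were *CCNH* and *MNAT1*, whose proteins bind CDK7 in the CDK-activating kinase. *CCNH* and both probe sets of *MNAT1* fell in IVM oocytes, with 3.66-fold to 11.4-fold lower signal. *CDK7* itself passed on neither probe set, with differences of -0.75 on 1 and 0.02 on the other, which read below every array median. The IVM mean of *CCNH* also lay below every array median. *CDK5* missed the threshold narrowly with a difference of -3.16, the study-named probe set of *CDK8* had a difference of -2.72, and that of *CDK2* was 1.84 higher. *CDK4* and *CDK9* did not pass, and *CCNC* and the annotated *CDK2* probe set were flat. Of the 10 annotated member probe sets, 3 were lower at a limma adjusted p under 0.0001, against 4.81% of all probe sets tested. None was higher (0 of 10, against 0.974% of all), and 1 of the 8 varying ones, *CDK9*, was higher at an unadjusted p under 0.05, against 41.5% of varying probe sets. When limma was run over the varying probe sets alone, 4 of 8 were lower, *CDK5* being added, against 17.8% of these probe sets, and 0 were higher, against 7.24%. On all 5 IVM arrays the value lay below every immature array for 5 of the 8 varying annotated probe sets, against 29.3% of varying probe sets, and above every immature array for 0, against 27.0%. Entering the replicate number, which the methods equate with the day of collection, as a block left 0 of the 10 probe sets past the threshold in limma over all 24016, as it did for the whole array, with 5 of the 8 varying ones lower at an unadjusted p under 0.05, against 33.7% of varying probe sets. The same block over the varying probe sets alone gave 4 of 8 lower, against 9.83%.

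**Figure D1:**
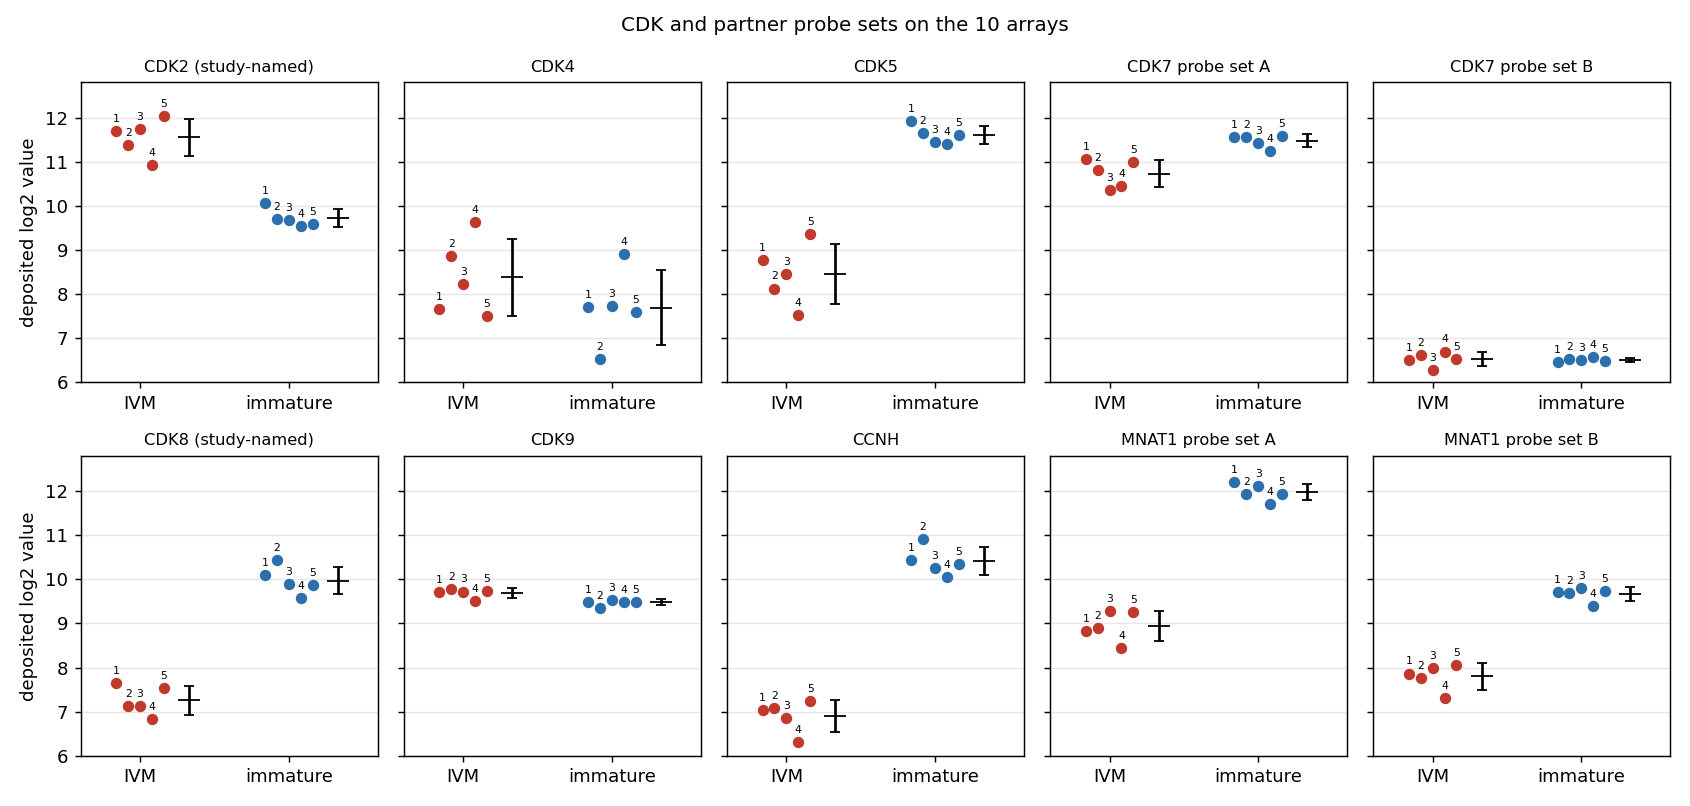
Deposited log2 value (vertical axis) of the 10 varying member probe sets on each array, with IVM arrays in red to the left and immature arrays in blue to the right. Small numbers are replicates, and the bar beside each group is its mean with the SD (n = 5). *CCNH*, *MNAT1*, *CDK5* and *CDK8* separate widely, *CDK7* separates on probe set A and not on B, the *CDK2* probe set shown lies higher in IVM oocytes, and *CDK4* and *CDK9* overlap.

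Cyclin H, the regulatory subunit that CDK7 needs for activity, had the largest difference among the members. *CCNH* read 7.03, 7.07, 6.85, 6.31 and 7.23 on IVM replicates 1 to 5, against 10.44, 10.92, 10.27, 10.07 and 10.35 on immature replicates 1 to 5. The groups were far apart, with every IVM value near or below 7 and every immature value above 10. The means were 6.90 ± 0.36 in IVM oocytes and 10.41 ± 0.32 in immature oocytes (SD, n = 5 each). The IVM mean lay below every array median, so the size of the fold rests on a low IVM signal. *CCNH* thus fell by 3.51 in log2 value (95% interval -4.00 to -3.02, standard error 0.21), an 11.4-fold lower signal, with a limma adjusted p of 6.47e-06. It stayed past the threshold whichever array was left out. With the replicate block the limma adjusted p was 0.000752.

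MAT1, which joins CDK7 to cyclin H and steadies the complex, was measured by 2 probe sets, called A and B here, that moved together. *MNAT1* probe set A read 8.84, 8.90, 9.29, 8.44 and 9.26 in IVM oocytes, against 12.21, 11.95, 12.12, 11.71 and 11.93 in immature oocytes. Probe set B read 7.86, 7.77, 7.99, 7.30 and 8.06 in IVM oocytes, against 9.73, 9.70, 9.81, 9.40 and 9.73 in immature oocytes. Neither probe set had any overlap between the groups, and replicate 4 was the lowest array of each group on both. Probe set A fell by 3.04 (standard error 0.18, 95% interval -3.45 to -2.63, 8.22-fold lower) with a limma adjusted p of 5.34e-06. Probe set B fell by 1.87 (standard error 0.15, 95% interval -2.22 to -1.53, 3.66-fold lower) with a limma adjusted p of 3.46e-05. Over the 10 arrays, deviations from the group means of these 2 probe sets had r = 0.919, a description of 2 readings of the same RNA. Probe set A stayed past the threshold without any 1 array, and probe set B kept its call only without IVM replicate 4 or immature replicate 4. With any other array left out its limma adjusted p lay above 0.0001, up to 0.000233 without immature replicate 5. With the replicate block the limma adjusted p was 0.000923 for A and 0.000752 for B.

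The catalytic subunit, CDK7, gave 2 readings that differed, 1 of them at low signal. *CDK7* probe set A read 11.05, 10.81, 10.36, 10.44 and 10.99 in IVM oocytes, against 11.56, 11.57, 11.43, 11.24 and 11.59 in immature oocytes. These groups did not overlap, but only 0.19 separated the highest IVM array from the lowest immature one. The difference was -0.75 (standard error 0.15, 95% interval -1.10 to -0.39) with a limma adjusted p of 0.00665, which did not pass. On probe set B the values were 6.50, 6.61, 6.28, 6.69 and 6.52 in IVM oocytes, against 6.45, 6.52, 6.50, 6.57 and 6.46 in immature oocytes. Here the groups overlapped, the difference was 0.02 (95% interval -0.15 to 0.19), and the limma adjusted p was 0.936. The 2 probe sets share the RNA and are not replicates, and deviations from the group means had r = 0.0820 between them over the 10 arrays.

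Among the kinases of the cell cycle, *CDK2*, which with cyclin E or A acts at the start of S phase, had 1 annotated probe set that was flat at 8.68 on all 10 arrays. The probe set that the study names *CDK2* read 11.70, 11.38, 11.74, 10.92 and 12.04 in IVM oocytes, against 10.07, 9.70, 9.68, 9.53 and 9.59 in immature oocytes. All IVM arrays lay above all immature arrays. The means were 11.56 ± 0.42 in IVM oocytes and 9.71 ± 0.21 in immature oocytes (SD, n = 5 each), a difference of 1.84, or 3.58-fold. This was the largest positive difference among the member probe sets, and it shrank to 0.91 when arrays were centred on the poly-A controls and to 0.94 when they were centred on the hybridization controls.

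*CDK4*, the partner of D-type cyclins in phosphorylating the retinoblastoma protein, varied widely within both groups. It read 7.65, 8.85, 8.22, 9.62 and 7.51 in IVM oocytes, against 7.70, 6.51, 7.73, 8.89 and 7.59 in immature oocytes. The groups overlapped, and replicate 4 was the highest array of each. The difference was 0.69 (standard error 0.54, 95% interval -0.56 to 1.93) with a limma adjusted p of 0.419, and the interval covers lower as well as higher values. Its sign turned when arrays were centred on the poly-A controls (-0.25) or on the hybridization controls (-0.22).

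*CDK5*, best known from neurons, where p35 (*CDK5R1*) activates it, showed a large difference that did not reach the threshold. It read 8.78, 8.12, 8.46, 7.53 and 9.35 in IVM oocytes, against 11.92, 11.65, 11.44, 11.41 and 11.59 in immature oocytes. No IVM array came within 2.06 of an immature one, although the IVM arrays spread more widely, from IVM replicate 4 at the bottom to IVM replicate 5 at the top. The means were 8.45 ± 0.69 in IVM oocytes and 11.60 ± 0.21 in immature oocytes (SD, n = 5 each), a difference of -3.16 (standard error 0.32, 95% interval -3.89 to -2.42), or 8.92-fold lower. The limma adjusted p was 0.000131 over all probe sets and 7.01e-06 over the varying ones. It was 7.87e-05 over all probe sets without IVM replicate 5, and with the replicate block it was 0.0042.

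*CDK8*, the kinase of the Mediator module, was read only by the study-named probe set. Its values were 7.65, 7.12, 7.14, 6.84 and 7.53 in IVM oocytes, against 10.09, 10.43, 9.89, 9.58 and 9.88 in immature oocytes. The groups lay 1.93 apart at their closest arrays, and replicate 4 was again the lowest in each. The means were 7.26 ± 0.33 in IVM oocytes and 9.98 ± 0.31 in immature oocytes (SD, n = 5 each), a difference of -2.72, or 6.59-fold lower. Its cyclin, *CCNC*, was flat at 6.91 on all 10 arrays, so these arrays give no difference for it in either direction.

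*CDK9*, the kinase of P-TEFb, was close to level between the groups. It read 9.72, 9.77, 9.73, 9.51 and 9.73 in IVM oocytes, against 9.50, 9.36, 9.53, 9.50 and 9.50 in immature oocytes. Only IVM replicate 4 lay among the immature values, below immature replicate 3. The difference was 0.21 (standard error 0.05, 95% interval 0.09 to 0.34) with a limma adjusted p of 0.0181, which did not pass. The sign of this small difference turned when arrays were centred on the poly-A controls (-0.72) or on the hybridization controls (-0.69).

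**Figure D2:**
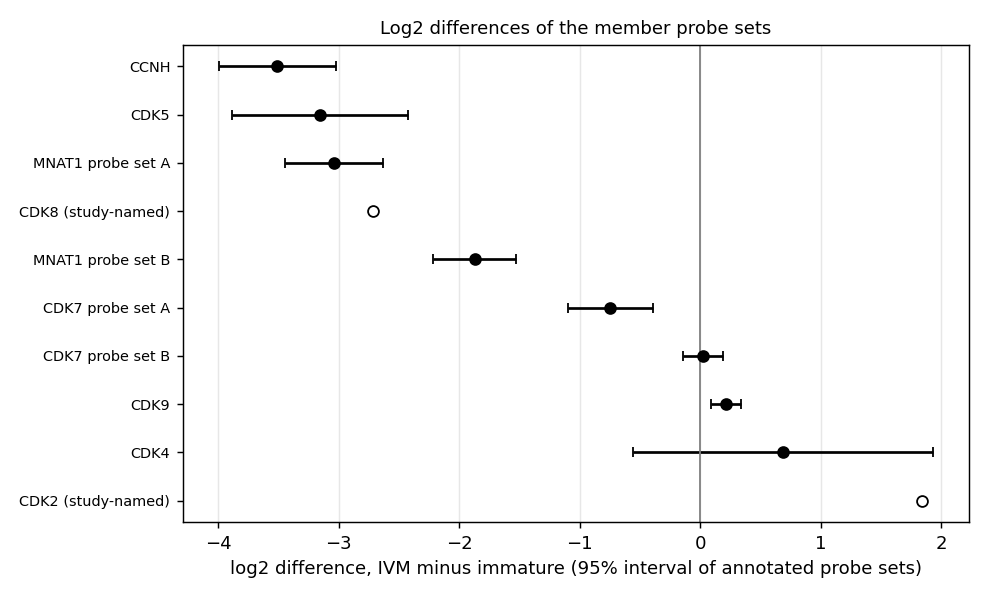
Log2 difference, IVM minus immature (horizontal axis), of each varying member probe set, ordered from the lowest at the top. Filled points are annotated probe sets with their 95% interval from limma, and open points, drawn without an interval, are those named only by the study's lists of changed transcripts. The range runs from -3.51 for *CCNH* to 1.84 for *CDK2*, and the intervals of *CDK4* and of *CDK7* probe set B cross 0.

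Pools with equal numbers gave differences of 1 sign for most members. Where groups do not overlap any pairing of arrays must give 1 sign, so the signs add nothing there. Of all varying probe sets, 29.3% had every IVM array below the immature arrays and 27.0% had every IVM array above them. Taken number by number, IVM minus immature ran from -3.85 to -3.12 for *CCNH*, from -3.88 to -2.24 for *CDK5* and from -3.31 to -2.35 for *CDK8*. It ran from -1.07 to -0.51 for *CDK7* probe set A and from 1.39 to 2.45 for the study-named *CDK2* probe set. Both signs occurred for *CDK4*, from -0.09 to 2.34, and for *CDK7* probe set B, from -0.22 to 0.12. Within groups the members did not all move one way: over the 45 pairs of varying member probe sets, deviations from the group means over the 10 arrays had r above 0 for 30 and below 0 for 15. The pairs ran from r = -0.945 between *CDK4* and *CDK8* to r = 0.946 between the study-named *CDK2* and *CDK5*, with r = 0.070 between *CDK8* and *CDK9*. Replicate 4 held the lowest or highest value of its group for 9 of the 10 varying member probe sets in IVM oocytes and for 9 of 10 in immature oocytes. Over all varying probe sets replicate 4 was an extreme array for 74.5% in IVM oocytes and 55.0% in immature oocytes.

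Genes with the most similar pattern were sought for *CDK2*, *CDK5* and *CDK8* by Pearson's r over the 10 arrays. These values are a description, since the arrays fall into 2 groups and any transcript that separates them well has a high r. Closest to the study-named *CDK2* probe set were *ABLIM1* (r = 0.993), *GLTP* (r = 0.992) and *HMBOX1* (r = 0.992), all higher in IVM oocytes by 1.40 to 1.71. Closest to *CDK5* were *FAM149A* (r = 0.996), *CSF1R* (r = 0.996) and *PDXP* (r = 0.995), with differences of -2.69, -2.01 and -2.92. Closest to *CDK8* were *RPGR* (r = 0.998), *CDC6* (r = 0.997) and *ARL6* (r = 0.997), with differences of -2.83, -3.04 and -3.21. *CDC6* loads the helicase at replication origins.

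The genes that work with these kinases were examined as 9 lists, each gene being represented by its probe set with the highest mean. Of the 82 genes on the array 59 varied, 14 were lower in IVM oocytes at the limma threshold, against 4.81% of all probe sets, and 0 were higher, although 22 of the 59 were higher at an unadjusted p under 0.05, against 41.5% of varying probe sets. The median difference was -0.14 over the 59 genes and 0.18 over all varying probe sets. Over the varying probe sets alone, limma gave 18 of the 59 lower, against 17.8% of these probe sets, and 5 higher, against 7.24%. The 5 higher genes were *AFF1*, *RB1*, *TFDP1*, *MED13L* and *POLR2C*, with limma adjusted p of 2.6e-05 to 8.71e-05 over these probe sets. With the replicate block 0 of the 59 passed over all probe sets (at an unadjusted p under 0.05, 27 were lower, against 33.7% of varying probe sets, and 21 higher, against 40.4%) and 11 were lower over the varying ones, against 9.83%. Centring on the poly-A controls shifted the median of all probe sets by -0.94, so that positive differences smaller than this shift turned negative while the 14 genes stayed lower. The call held without any 1 of the 10 arrays for 9 of the 14 genes and was lost without at least 1 array for the other 5, *CDK1*, *CDK3*, *CDK20*, *HEXIM2* and *POLR2G*, whose highest limma adjusted p, each without immature replicate 5, lay between 0.000113 and 0.000347.

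Of 9 other cyclin-dependent and related kinases on the array, 5 varied, 3 fell and 0 rose, with a median of -1.06 (at an unadjusted p under 0.05, 1 was higher). *CDK1*, the kinase of M phase, fell by 4.42 (limma adjusted p 1.97e-05), to 6.95 ± 0.71 in IVM oocytes against 11.37 ± 0.15 in immature oocytes (SD, n = 5 each). *CDK20*, also called cell cycle-related kinase, fell by 1.54 (limma adjusted p 1.74e-05) and *CDK3*, a close relative of *CDK2*, fell by 1.06 (limma adjusted p 1.73e-05). *CDK12* and *CDK13*, which phosphorylate the polymerase tail during elongation, had differences of 0.71 and 0.04 and did not pass. Of the partner genes that fell in any list, *CDK1*, *CDK20*, *TFDP2* and *POLR2M* had IVM means below every array median. Of 17 cyclins outside the members on the array 9 varied, and limma called 0 lower and 0 higher, with a median of 0.29. At an unadjusted p under 0.05, 2 cyclins were lower and 3 higher. The largest differences were -1.46 for *CCNB2*, a B-type cyclin (limma adjusted p 0.00281), and 1.23 for *CCNL2*, a cyclin L linked to splicing (limma adjusted p 0.0362).

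Among CDK inhibitors and CDK-binding regulators, 12 were on the array, 8 varied and 1 fell. This was *CINP*, which binds CDK2 and replication origins, at 7.87 ± 0.34 in IVM oocytes and 11.40 ± 0.15 in immature oocytes (SD, n = 5 each), so that it fell by 3.54 with a limma adjusted p of 1.62e-06. *CDKN2AIPNL* just missed the threshold on the probe set used here, with a difference of -3.18 (limma adjusted p 0.000101), but its other varying probe set passed with -0.90 (limma adjusted p 1.34e-05), and *CDK2AP2*, an interactor of CDK2-associated protein 1, had a difference of 1.59 (limma adjusted p 0.00723). All 4 CDK5-associated genes on the array varied and 1 fell. *CDK5RAP3* fell by 1.47 (limma adjusted p 9.29e-06), though its other varying probe set did not pass. *CDK5RAP1*, a tRNA-modifying enzyme named for binding the CDK5 activator, had a difference of -2.26 and did not pass (limma adjusted p 0.000176). *CCNI*, cyclin I, which activates CDK5 in cells that have left the cycle, had a difference of 0.84 (limma adjusted p 0.0442). The activator *CDK5R1* itself, named here after its values were seen, was at 11.07 ± 0.72 in IVM oocytes and 11.21 ± 0.63 in immature oocytes (SD, n = 5 each), with a limma adjusted p of 0.903.

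For the complexes of *CDK7* and *CDK8*, 6 genes for the TFIIH core and the nuclease XPG were on the array, 4 varied and 1 fell, with a median of -1.18. *GTF2H2*, the p44 subunit that stimulates the XPD helicase, fell by 4.52 (limma adjusted p 6.8e-08), to 7.28 ± 0.14 in IVM oocytes against 11.80 ± 0.21 in immature oocytes (SD, n = 5 each). *GTF2H1*, the p62 subunit, had a difference of -1.86 and did not pass (limma adjusted p 0.000922). *ERCC3*, the XPB translocase, had a difference of 0.68 (limma adjusted p 0.0762), and *ERCC2* and *GTF2H4* were flat. Of the other Mediator kinase module genes only *MED12* and *MED13L* were on the array. *MED12* was flat, and *MED13L*, a subunit that links the module to core Mediator, had a difference of 1.11 with no overlap between groups (limma adjusted p 0.000603), which did not pass.

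Of 14 P-TEFb partners and regulators 10 varied, 3 fell and 0 rose, with a median of -0.17 (at an unadjusted p under 0.05, 4 were higher). *HEXIM2*, an inhibitor of P-TEFb, fell by 4.84 (limma adjusted p 1.48e-05), whereas its paralog *HEXIM1* had a difference of 1.78 (limma adjusted p 0.0452). *NELFA* and *NELFB*, subunits of the factor that holds polymerase paused, both fell, *NELFA* with a difference of -2.84 (limma adjusted p 3.06e-06) and *NELFB* of -1.13 (limma adjusted p 1.2e-05). *ELL*, an elongation factor, had a difference of -1.37 and did not pass (limma adjusted p 0.000837). The cyclin partners *CCNT1*, *CCNT2* and *CCNK* were flat. *LARP7*, which guards the 7SK RNA that holds P-TEFb inactive and is named here after its values were seen, gave opposite readings, 1.25 on the probe set used here and -3.41 on another, which passed (limma adjusted p 2.06e-06).

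The lists of RB and E2F/DP proteins and of polymerase subunits, only some of which are substrates of these kinases, also divided. In the RB and E2F/DP list, 10 genes were on the array, 7 varied, 1 fell and 0 rose, with a median of 0.96 (at an unadjusted p under 0.05, 4 were higher). *TFDP2*, a dimerization partner of E2F factors, fell by 2.78 (limma adjusted p 6.14e-06). *E2F5* and *E2F4*, which mostly repress, had differences of 1.39 (limma adjusted p 0.00115) and 1.22 (limma adjusted p 0.00114). All 12 RNA polymerase II subunit genes on the array varied, with a median of -0.73, and 4 fell while 0 rose (4 higher at an unadjusted p under 0.05). These were *POLR2G* with -3.84 (limma adjusted p 5.54e-05), *POLR2I* with -3.10 (limma adjusted p 6.75e-06), *POLR2M* with -2.85 (limma adjusted p 6.22e-06) and *POLR2E* with -1.72 (limma adjusted p 9.23e-06). *POLR2M* is the Gdown1 subunit, which is not part of every polymerase. *POLR2C*, a core subunit, had a difference of 1.27 (limma adjusted p 0.000788), and *POLR2D* had a difference of -1.33 and did not pass on this probe set (limma adjusted p 0.0013) but passed on another with -1.87 (limma adjusted p 4.61e-05).

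**Figure D3:**
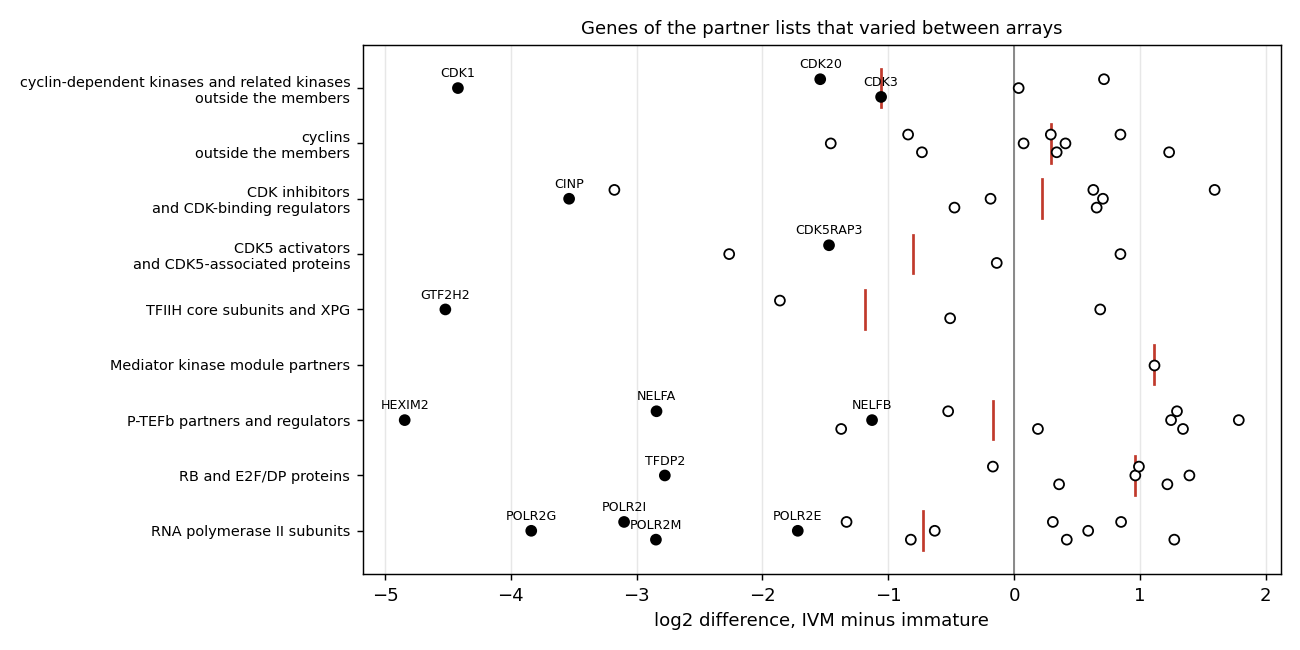
Log2 difference, IVM minus immature (horizontal axis), of each varying gene of the 9 lists of partner genes, 1 point per gene and list on its probe set with the highest mean. *CCNI* is in the cyclin list and in the CDK5 list and is drawn in both. Filled and named points passed the limma threshold, open points did not, and the red line is the median of the list. All 14 filled points lie below 0, and the TFIIH, P-TEFb and polymerase lists each hold genes on both sides of 0.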

How the data were processed

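The authors read 10 Affymetrix bovine arrays (5 IVM and 5 immature pools) with GCOS, applied quantile normalization and summarised probes by FARMS. The deposited unit is therefore a summarised log2 value for each probe set and array. Control probe sets (112) were set apart. Symbols came from the platform's annotation, updated by gene identifier for 13263 probe sets and by accession for 4. Columns left unused numbered 0. IVM minus immature was fitted with limma 3.58.1 (lmFit and eBayes) in R 4.3.3, with Benjamini-Hochberg adjustment over 24016 probe sets and a threshold of 0.0001, and the script was tested on simulated data. Tables and plots were made in Python 3.11.15 with pandas 2.3.3, numpy 2.4.6 and matplotlib 3.10.9. The members and gene lists were chosen with earlier results of these data known.

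Named were every member probe set, each partner gene past the threshold (at most 8 per list), up to 2 per list with the largest difference that did not pass, and the 3 genes most like *CDK2*, *CDK5* and *CDK8*. Other genes were named after their values were seen: *CDK5R1*, *LARP7*, *AFF1*, *RB1*, *TFDP1*, genes that were flat and the markers. The methods equate replicates with days of collection, and complexes were split in equal parts for use as immature and as matured oocytes. Deviations from group means of IVM and immature arrays with equal numbers had r = 0.143, -0.347, 0.0872, 0.672 and 0.359 for replicates 1 to 5. Only for replicate 4 did the equal number give the highest r. Such r cannot settle whether equal numbers share a day, since a shared day need not dominate the deviations. Member calls are therefore given without and with the block. Alternatives were the block, the varying probe sets alone, trended and robust eBayes, centring on the median or on spiked controls, leaving out arrays and a looser threshold. The number of arrays limits the precision.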

Additional observations from a re-analysis of the deposited data

Results flagged for a closer look

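Of 20 groups of 5 arrays examined for the varying member probe sets, 3 held 1 array far from its group, where chance alone flags about 1 in 20 groups. *CDK9* in IVM replicate 4 was at 9.51 on the log2 scale, below the other IVM arrays at 9.72 to 9.77. *CDK9* in immature replicate 2 was at 9.36, below the other immature arrays at 9.50 to 9.53. *MNAT1* probe set B in immature replicate 4 was at 9.40, below the other immature arrays at 9.70 to 9.81, and its difference between groups remained far larger than this gap.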

How the results depend on the processing

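The count of 3 annotated member probe sets lower in IVM oocytes was 0 with the replicate block over all probe sets (limma adjusted p 0.000752 for *CCNH*, 0.000923 and 0.000752 for *MNAT1*) and 4 with the block over varying probe sets only. It was 0 with immature replicates 1, 2 and 3 left out, where limma called 4 probe sets lower on the whole array. None of the 14 partner genes passed there. At an unadjusted p under 0.05, 5 of the 8 varying members and 24 of the 59 partner genes were lower in that setting. On the whole array, flat probe sets included, 3307 of 24016 were lower at that p. The count of lower members was 6 when arrays were centred on the poly-A controls, 5 when centred on the hybridization controls and 5 at an adjusted p under 0.05. The count of higher members, 0, became 1 at an adjusted p under 0.05. At that threshold limma called 2997 of the 9460 varying probe sets lower and 3218 higher. These counts are over varying probe sets, since a p of a flat probe set has no meaning. Leaving out 1 array gave 2 to 3 lower and 0 higher, with 703 to 1097 lower and 77 to 318 higher on the whole array. Centring moved the median of all probe sets by -0.94 (poly-A) and -0.90 (hybridization), and calls on the whole array, 1155 lower and 234 higher as deposited, became 18661 lower and 165 higher, or 2437 lower and 203 higher. All probe sets of an array were shifted alike, so calls after centring carry the control offset. *CDK7* probe set B thus passed as lower with poly-A centring (limma adjusted p 5.39e-06). With hybridization centring all member probe sets had the same standard error, 0.37. Differences that changed sign with poly-A centring were *CDK4* (-0.25), *CDK7* probe set B (-0.92) and *CDK9* (-0.72), and with hybridization centring the same 3 (-0.22, -0.88 and -0.69). That *CDK7* probe set ranged from -0.0226 to 0.0803 with 1 array left out, being -0.0036 without IVM replicate 2 and -0.0226 without IVM replicate 4. Apart from these, no member difference changed sign. With 5 arrays against 5 the exact permutation test cannot give a p below 0.00794. The causes were not tested.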
